A study of Mus musculus with 4 samples.

Results

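Genes of traffic through the endoplasmic reticulum (ER), the Golgi and transport vesicles were read in skeletal muscle of mice that lack corticotropin-releasing factor receptor 2 and of their wild-type littermates. The genes were chosen by symbol alone: Sec names beginning with 1, 2 or 6, coat protein (Cop) subunits, Arf1 to Arf6, and Rab, Vps, Snx, Tmed and Trappc genes, with Tex261 and Tmem115. The rule took 154 of 12422 probe sets, for 117 of 8251 genes that have a probe set with a single symbol. No measured value entered the symbol patterns. Tex261 and Tmem115, which were named singly, and Sec16a were already known from earlier results of these arrays.

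The wild type (WT) was Crhr2+/+ and the knockout (KO) Crhr2-/-, all male, 6.5 months old and of mixed C57BL/6 and 129 background, with no treatment before the muscles were taken. Gastrocnemius and soleus were used as 1 sample, and RNA came from 4 mice of each genotype, mixed as 2 pools of 2 animals. Each pool was read on 1 Affymetrix U74Av2 array, a 1-colour array on which a transcript is measured by a set of short probes. The absence of the receptor was lifelong and not limited to muscle as far as the labels say, and an array shows the mean of 2 mice. The spread between arrays is thus a spread between pools.

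Secreted and membrane proteins enter the ER through the Sec61 channel, leave it in vesicles coated by COPII at exit sites organised by Sec16, and return from the Golgi in vesicles coated by COPI, whose assembly Arf GTPases start. Rab GTPases mark each membrane and recruit tethers, and Vps proteins and sorting nexins sort cargo at endosomes and lysosomes. In muscle fibres the same machinery delivers receptors, channels and the glucose transporter to the surface and the T-tubules. RNA of whole muscle was measured, so more cells of a type and more RNA per cell cannot be told apart.

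Muscle markers were bright on every array, among them Acta1 at 19099 to 21770 and Myh4 at 18195 to 21337, with the exception of Myh2, at 4.49 to 12.05. Crhr2 itself read 154 and 192 in WT against 100.4 and 75.1 in KO (log2 fold change -0.88 ± 0.25, limma adjusted p = 0.803). Markers of other organs differed between the arrays. The summed intensity of 11 exocrine pancreas genes was 13631 in KO replicate 1, 4235 in KO replicate 2, and 1934 and 1828 on the WT arrays, and all 11 were higher on both KO arrays. Of 10 liver genes, 7 were lower on both KO arrays, with sums of 2413 and 2867 in WT against 1132 and 1045 in KO. Of 5 B and plasma cell genes, 4 were lowest in WT replicate 2, with sums of 5240 and 3173 in WT against 3104 and 4361 in KO. Most of these sums was Ighm, at 4455 and 2919 in WT against 2470 and 3505 in KO (log2 fold change -0.29). By log2 fold change 4 of the 5 genes were higher in KO, and the median of the 5 was 0.46. Sums over 6 macrophage genes were 959 and 957 in WT against 922 and 942 in KO. Of these genes, Adgre1 was lower on both KO arrays (log2 fold change -0.84 ± 0.36) and Fcgr3 higher on both (0.88 ± 0.34). Both were dim, and the others overlapped between the genotypes. No marker was listed at 0; the lowest value was 1.28, for the liver gene Fgg in KO replicate 1. Their part in the results below was not tested.

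With the brightest probe set of each gene, 59 of 117 traffic genes were higher and 58 lower in KO. That split turned with 1 array: it was 72 and 45 without KO replicate 2 and 53 and 64 without KO replicate 1. The median log2 fold change was 0.0011, against -0.0046 over all 8251 genes. Both KO arrays lay above both WT arrays for 19 genes (16.2%) and below them for 15 (12.8%). Over all probe sets these shares were 17.0% and 17.6%, and over all genes 16.4% and 18.2%, so the count of separated traffic genes was near or below the background. The differences were also small: 82 genes (70.1%) had a log2 fold change between -0.2 and 0.2, against 53.6% of all genes. Traffic genes were brighter than most, and among genes with a mean above the median probe set the shares were 74.7% and 64.2%. No probe set of the 154 passed (limma, 0 with an adjusted p under 0.05, smallest adjusted p = 0.803), and the background is 0% of 12422. An unadjusted p under 0.05 was found for 13 of the 154 probe sets (8.44%), against 5.43% of all probe sets (3.25% against 5.35% without WT replicate 2), and for 7 of the 117 genes (5.98%), against 5.39% of all genes. Of these, 7 probe sets were higher in KO and 6 lower, where the background is 2.57% and 2.86% of all probe sets. Among genes 4 were higher and 3 lower, where it is 2.41% and 2.98% of all genes. The lower probe sets include those of Tex261 and Tmem115, and the lower genes include Tmem115. Both were named singly with earlier results known. Sec16a, among the higher ones, was also known from those results, so these counts were not independent of the data. An exact permutation test of any single gene cannot go below p = 0.333 (two-sided) with 2 arrays against 2.

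**Figure D1:**
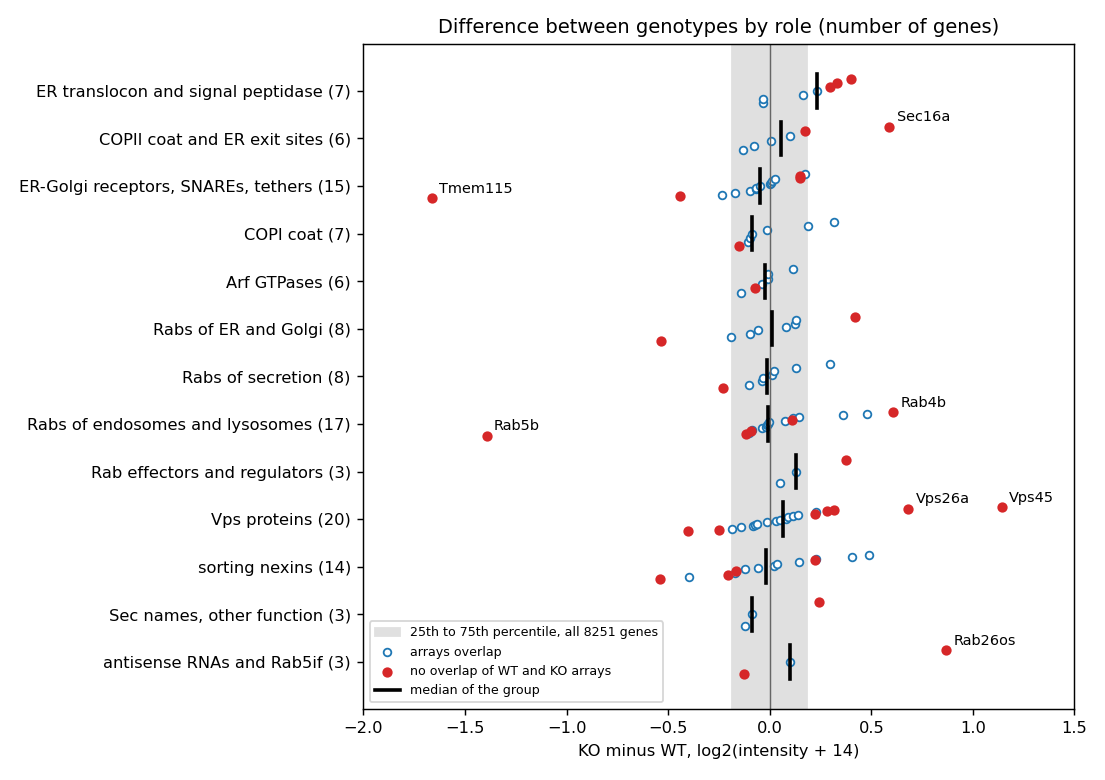
Difference in mean log2(intensity + 14) between KO and WT for each of the 117 genes, 1 probe set per gene, by role. Filled points are genes whose WT and KO arrays do not overlap, bars are group medians and the grey band holds the 25th to 75th percentile of all 8251 genes. Most points lie near 0, and Tmem115 at -1.66, Rab5b at -1.39 and Vps45 at 1.14 lie farthest out.

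The median absolute difference of the 117 genes on the log2 scale was 0.17 for the pair of WT arrays, 0.26 for the pair of KO arrays and 0.12 for the genotype means, each of which averages 2 arrays. Over all genes these were 0.23, 0.24 and 0.18. Leaving out 1 array moved the difference by over 1.5 times for 20 of the 34 traffic genes whose genotypes did not overlap. KO replicate 1 was the highest of the 4 arrays for 40 genes (34.2%, against 22.2% of all genes), and WT replicate 2 for 18 (15.4%, against 25.3%). The pancreas markers were also highest in KO replicate 1, in all 11 cases. Between the KO arrays, replicate 1 was the higher for 69 of 117 genes (59.0%), against 46.6% of all genes.

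**Figure D2:**
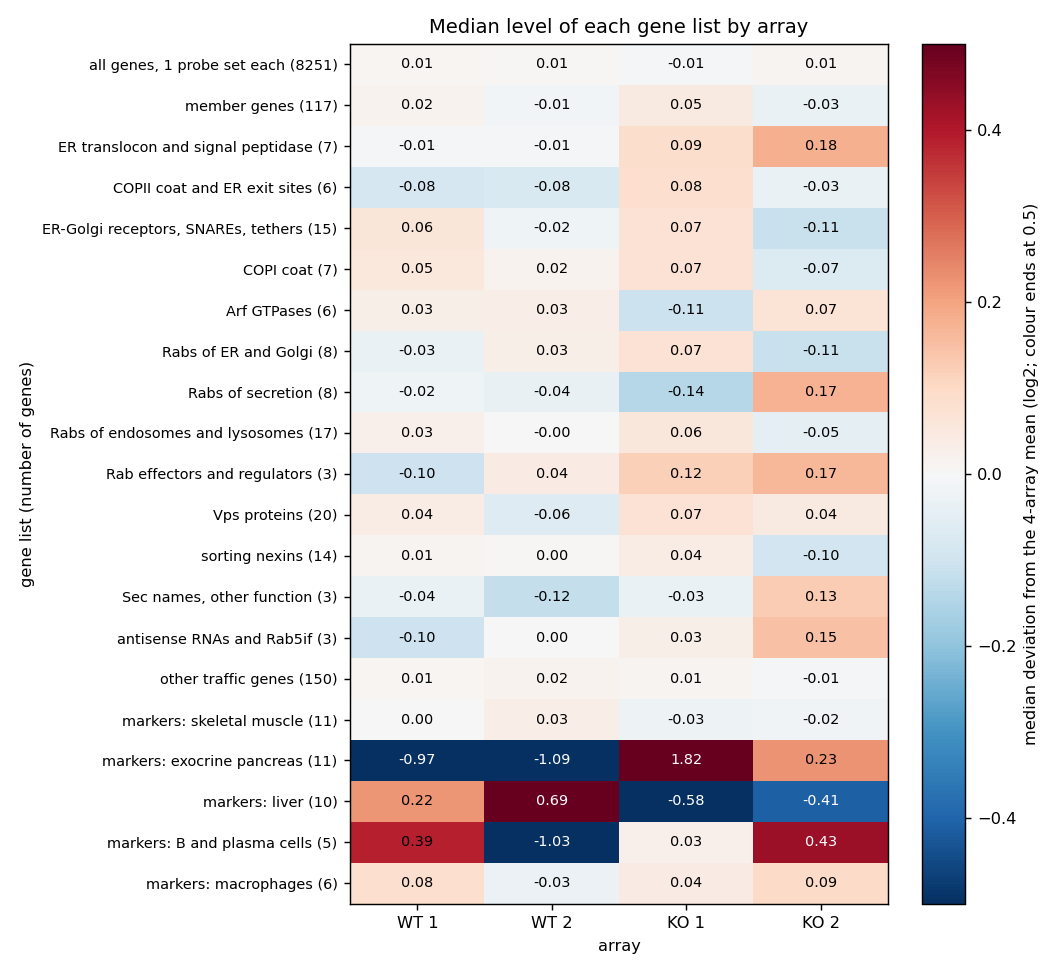
Median deviation of each gene list from its own mean over the 4 arrays, in log2 units, with the number of genes in parentheses. The traffic lists lie between -0.14 and 0.18, whereas the pancreas markers reach 1.82 in KO replicate 1 and the B and plasma cell markers -1.03 in WT replicate 2.

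Genes of the ER translocon and signal peptidase were higher in KO in 5 of 7 cases, at a median of 0.23 on the log2 scale, and 3 of them (42.9%, against 16.4% of all genes) separated the genotypes. None had an unadjusted p under 0.05. Sec11c, a catalytic subunit of the signal peptidase that trims signal sequences, read 124 and 126.3 in WT against 148 and 195 in KO. Both KO arrays were above both WT arrays, but the KO arrays differed from each other by more than KO replicate 1 did from WT (log2 fold change 0.40 ± 0.22, limma adjusted p = 0.908, 0.22 without KO replicate 2). Its paralog Sec11a overlapped, at 255 and 283 in WT against 342 and 267 in KO. Sec62, which joins the channel for proteins that enter after translation, read 143 and 112 in WT against 155 and 162 in KO on its brightest probe set (0.30 ± 0.21, and 0.14 without WT replicate 2). Its other probe sets gave 0.61 ± 0.30 and 0.06 ± 0.25. Sec63, the partner of Sec62, was dim and read 46.6 and 65.0 in WT against 78.0 and 68.3 in KO (0.33 ± 0.32, and 0.14 without WT replicate 1).

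The channel subunits themselves showed no common direction. Sec61b, a small subunit of the channel, read 487 and 478 in WT against 407 and 547 in KO (-0.03 ± 0.16), with the KO arrays on either side of WT. For Sec61a1, the channel-forming subunit, the brighter probe set overlapped (0.23 ± 0.17). The other was lower on both KO arrays without overlap (-0.25 ± 0.22). Sec61a2, its paralog, differed by -0.03 ± 0.13. Pancreatic acinar cells and plasma cells are known for abundant translocon transcripts. The pancreas markers were highest in KO replicate 1, and 3 of the 7 translocon and signal peptidase genes were highest there and 4 in KO replicate 2; the part of those cells was not tested.

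Of the COPII coat and ER exit site genes, Sec16a was higher on both KO arrays. Sec16a, the scaffold of ER exit sites, read 299.8 and 327 in WT (mean 313 ± 19.3, SD, n = 2) against 479 and 477 in KO (mean 478 ± 1.51, SD, n = 2). The KO arrays were nearly equal and lay well above both WT arrays, a 1.505-fold difference (log2 fold change 0.59 ± 0.13, unadjusted p = 0.00315, limma adjusted p = 0.803). Leaving out any array gave 0.53 to 0.65.

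The coat subunits around it differed less. Sec23a, an inner coat subunit that is the GTPase-activating partner of Sar1, read 1102 and 1233 in WT against 1382 and 1256 in KO (0.17 ± 0.11, and 0.09 without WT replicate 1), and 0.43 ± 0.25 on its other probe set, where KO replicate 1 at 690.0 stood apart from 397 in KO replicate 2. Sec13, of the outer coat, read 686 and 724 in WT against 690.1 and 644 in KO. Sec24c, which picks cargo, overlapped, and the probe set of its paralog Sec24b was dim, at 4.50 to 15.2 over the 4 arrays. In this group of 6 genes 4 were higher, and the median log2 fold change was 0.05. Sec16a and Sec23a were higher without overlap (33.3%, against 16.4% of all genes). Sar1a, Sar1b and Sec31a, also of this coat, did not match the rule and were read in the wider list below. Sar1a was lower without overlap (-0.16), and Sar1b and Sec31a were higher without overlap (0.20 and 0.11).

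The upstream region of Sec16a is shown because it was the traffic gene with the smallest unadjusted p among those higher in KO. These are 250 bases before the gene's start (RefSeq, GRCm38.p6), 5′ to 3′; no base is in capitals because the stretch holds none of the Golgi stress, unfolded protein response, CLEAR core or E-box motifs described below.
Sec16a (chr2:26445217-26445466, - strand): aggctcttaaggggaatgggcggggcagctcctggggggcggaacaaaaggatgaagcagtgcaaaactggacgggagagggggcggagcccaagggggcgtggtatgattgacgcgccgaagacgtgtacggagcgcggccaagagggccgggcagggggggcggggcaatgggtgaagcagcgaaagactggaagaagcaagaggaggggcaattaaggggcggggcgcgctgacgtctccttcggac

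Among the genes between ER and Golgi, Tmem115 and a single probe set of Tex261 were lower in KO. Tmem115, a membrane protein of the Golgi, read 151 and 160.4 in WT (mean 156 ± 6.77, SD, n = 2) against 53.3 and 28.6 in KO (mean 40.9 ± 17.4, SD, n = 2). The WT arrays were close together and both KO arrays were far below them, a 3.17-fold difference on the log2(intensity + 14) scale (log2 fold change -1.66 ± 0.33, unadjusted p = 0.00207, limma adjusted p = 0.803). It ranged from -1.99 to -1.33 when an array was left out. The array has 1 probe set with this symbol alone, so no other reading of the gene stood beside it.

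Tex261, the counterpart of a yeast protein that helps glycosyltransferases leave the ER, was read by 2 probe sets that disagreed. The dimmer probe set gave 494 and 374 in WT against 194 and 204 in KO, with no overlap (log2 fold change -1.06 ± 0.17, unadjusted p = 0.000812, limma adjusted p = 0.803). The brighter probe set gave 586 and 516 in WT against 567 and 486 in KO, which overlapped (-0.07 ± 0.14). The difference of the gene therefore rests on 1 probe set. The position of each probe set on the transcript was not used here.

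Most tethers and cargo receptors of the same step overlapped between the genotypes. Trappc4, a core subunit of the TRAPP tether, read 334 and 315 in WT against 227 and 242 in KO, with both KO arrays below WT (-0.44 ± 0.14, unadjusted p = 0.020, limma adjusted p = 0.830). It was the only subunit of 7 to separate the genotypes; the TRAPP median was -0.10, and Trappc2l read 943 and 863 in WT against 944 and 864 in KO. Of 5 Tmed genes, which escort cargo such as GPI-anchored proteins, 3 were higher and 2 lower. Tmed4 read 843 and 787 in WT against 947 and 866 in KO (0.15 ± 0.11), and Tmed7 gave 0.43 ± 0.15 on 1 probe set and -0.07 ± 0.18 on the brighter one. Sec22b, a SNARE that fuses vesicles between ER and Golgi, gave 0.15 ± 0.15 and -0.41 ± 0.41. In the group of 15 genes, 7 were higher and 8 lower.

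**Figure D3:**
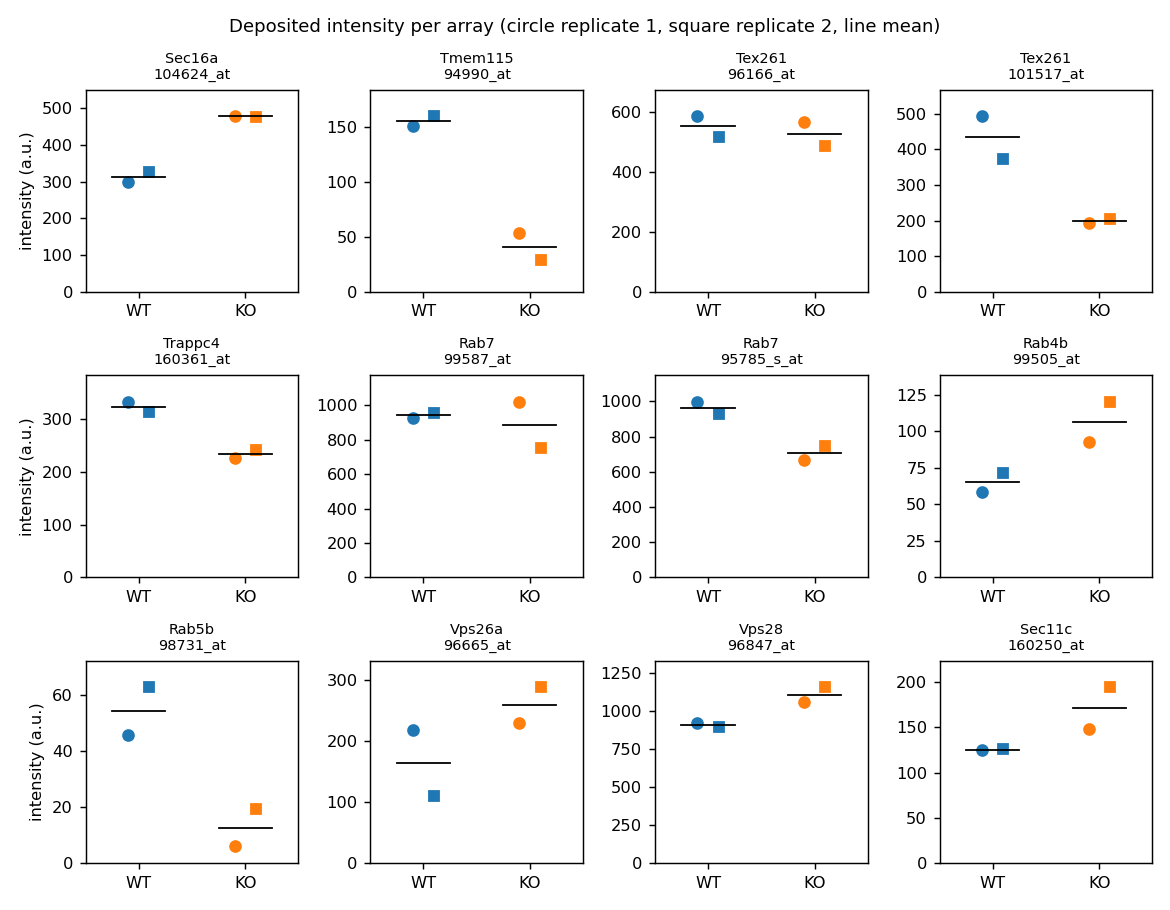
Deposited intensity of 12 probe sets on each array, in arbitrary units with an axis from 0; circles are replicate 1, squares replicate 2 and lines the mean of each genotype. The KO arrays of Sec16a nearly coincide at 479 and 477, Tmem115 stands at 151 and 160.4 in WT and at 53.3 and 28.6 in KO, and the probe sets of Tex261, and those of Rab7, disagree.

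The COPI coat was slightly lower in KO in 5 of 7 genes, with a median log2 fold change of -0.09. Of these 5 only Copa kept its sign whichever array was left out. Cope, Copz1 and Copz2 turned to 0.03, 0.05 and 0.04 without KO replicate 2, and Copg1 to 0.02 without WT replicate 2. Copa, the alpha subunit, read 916 and 944 in WT against 840 and 829 in KO and was the only one of the 7 to separate the genotypes on its brightest probe set (-0.15 ± 0.10, limma adjusted p = 0.908). Copg1, the gamma subunit, gave -0.58 ± 0.22 on its dimmer probe set, at 149.6 and 148 in WT against 86.8 and 103 in KO without overlap, but -0.11 ± 0.15 on the brighter one. Copb2, the beta-prime subunit, read 1326 and 868 in WT against 1493 and 1203 in KO (0.32 ± 0.21, and -0.21 ± 0.24 on its other probe set), and its difference was 0.02 without WT replicate 2. Copz1, the zeta subunit, did not separate, at 529 and 505 in WT against 536 and 491 in KO.

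On the brightest probe set of each gene, Arf GTPases differed by -0.14 to 0.11 on the log2 scale, and 5 of 6 were lower. Of these 5 only Arf1 kept its sign whichever array was left out, and Arf6, the higher gene, turned as well. Arf1, which starts COPI assembly at the Golgi, was a bright gene at 4611 and 4732 in WT against 4297 and 4603 in KO (-0.07 ± 0.10). Its KO values lay below both WT values by a small margin. Arf4 read 216 and 203 in WT against 213 and 168 in KO (-0.14 ± 0.19), and Arf5 differed by -0.01 ± 0.14. Arf6, which acts at the cell surface, was dim on both probe sets: 1 read 11.5 and 8.01 in WT against 32.3 and 46.9 in KO, with no overlap (1.16 ± 0.33, unadjusted p = 0.0117, limma adjusted p = 0.803). The brighter one overlapped (0.11 ± 0.49). The 3 probe sets of Arf3 gave -0.04, 0.31 and -0.56. Arf2 was dim, at 13.5 to 36.9. Arf proteins are close paralogs, and probe sets of such genes can share signal.

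Of 33 Rab GTPases, 15 were higher and 18 lower in KO, and the median log2 fold change was -0.01. Without overlap 3 (9.09%) were higher and 5 (15.2%) lower, against 16.4% and 18.2% of all genes. Among the Rabs of the ER and Golgi, Rab34 read 145 and 122 in WT against 102 and 74.8 in KO (-0.54 ± 0.26, -0.35 without KO replicate 2). Rab33b, which also serves autophagy, read 167 and 173 in WT against 204 and 263 in KO (0.42 ± 0.19, and 0.25 without KO replicate 2), but 0.03 ± 0.29 on its other probe set. Rab1a, the Rab of ER-to-Golgi transport, read 403 and 459.98 in WT against 421 and 528 in KO, and Rab2a, Rab6a and Rab18 overlapped too. Rab12 differed by 0.08 ± 0.10 and Rab33a was dim, at 8.11 to 35.03.

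Of the 8 Rabs of secretion and the cell surface, 4 were higher and 4 lower. Rab10 and Rab8a are known for moving the glucose transporter GLUT4 to the surface. Rab10 read 1364 and 1506 in WT against 1618 and 1303 in KO (0.02 ± 0.13, and -0.10 ± 0.13 on its other probe set). Rab8a read 244 and 178 in WT against 204 and 203 in KO (-0.03 ± 0.20). Rab25, an epithelial relative of Rab11, read 64.0 and 68.1 in WT against 67.4 and 105 in KO (0.30 ± 0.32), where KO replicate 2 alone was high. The neuronal and endocrine Rab3a and Rab3b were dim, at 53.7 to 69.0 and 7.27 to 14.8, and differed by 0.01 ± 0.32 and -0.23 ± 0.24.

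Of the Rabs of endosomes and lysosomes, Rab4b and Rab5b showed the largest differences. Rab4b, which recycles cargo from early endosomes, read 58.3 and 71.5 in WT against 92.9 and 120.3 in KO (0.61 ± 0.29, unadjusted p = 0.0792, limma adjusted p = 0.908). Both KO arrays were above WT, and leaving out KO replicate 2 or 1 gave 0.44 or 0.77. Its paralog Rab4a read 332 and 348 in WT against 314 and 359 in KO. Rab5b, of early endosomes, was dim: it read 45.7 and 62.9 in WT against 6.09 and 19.1 in KO, with no overlap (-1.39 ± 0.40, unadjusted p = 0.0123, limma adjusted p = 0.803). Its size depended on the pseudocount, from -0.69 with a pseudocount of 56 to -1.96 with one of 3.5. Its paralogs Rab5a and Rab5c differed by -0.01 ± 0.18 and -0.09 ± 0.14.

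Rab7, which directs late endosomes to lysosomes, gave another disagreement. The dimmer probe set read 999 and 929.7 in WT against 668 and 744 in KO, with no overlap (-0.44 ± 0.11, unadjusted p = 0.00727, limma adjusted p = 0.803). Its name carries the letter s, which marks probes shared by several transcripts. The brighter probe set read 926 and 957 in WT against 1021 and 753 in KO, where the KO arrays lay on either side of WT (-0.10 ± 0.16). Rab9, of transport from endosomes to the Golgi, read 410.3 and 377 in WT against 404 and 379.8 in KO. Rab11a, of the recycling endosome, read 548 and 539 in WT against 547 and 529 in KO, and Rab14 and Rab21 differed by 0.11 and 0.08. In this group of 17 genes 7 were higher and 10 lower.

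Among Rab effectors, all 3 genes were higher on average, by 0.05 to 0.38. Rab3il1, an exchange factor, was dim, at 45.5 and 38.5 in WT against 55.2 and 62.1 in KO (0.38 ± 0.33). Rab3ip, the exchange factor of Rab8, read 151 and 177 in WT against 197 and 165 in KO (0.13 ± 0.20), and Rab11fip5 overlapped (0.05 ± 0.21).

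Of 20 Vps genes, 12 were higher and 8 lower in KO, at a median of 0.07 on the log2 scale, and 5 (25%) and 2 (10%) of them separated the genotypes, against 16.4% and 18.2% of all genes. Vps28, a subunit of the ESCRT-I complex that sorts ubiquitinated receptors at endosomes, read 923 and 892 in WT (mean 908 ± 21.8, SD, n = 2) against 1056 and 1156 in KO (mean 1106 ± 70.7, SD, n = 2). Both KO arrays were above WT by more than the WT arrays differed (0.28 ± 0.10, unadjusted p = 0.0361, limma adjusted p = 0.862). Of the 4 ESCRT-I genes 3 were higher, with a median of 0.18. Vps37c differed by 0.23 ± 0.17, or 0.04 without KO replicate 2, and Vps37b by -0.25 ± 0.36, and Vps37a was dim, at 1.81 to 21.8. The ATPase genes Vps4a and Vps4b, which take ESCRT filaments apart, differed by -0.01 ± 0.11 and 0.03 ± 0.20.

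The retromer, which returns receptors from endosomes, was read by 4 genes of its core. Vps26a read 218 and 109.8 in WT against 230.4 and 289 in KO (0.68 ± 0.32, unadjusted p = 0.0726, limma adjusted p = 0.908). WT replicate 2 stood apart, and the difference was 0.23 without it and 1.14 without WT replicate 1. Vps26b, its paralog, read 129.9 and 121 in WT against 179 and 143 in KO (0.32 ± 0.21, and 0.17 without KO replicate 1). The other core subunits went the other way on average and overlapped: Vps29 differed by -0.18 ± 0.23 and Vps35 by -0.08 ± 0.19.

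The remaining Vps genes included the SM protein Vps45, which helps SNAREs of endosomes to pair. Its brighter but still dim probe set read 36.1 and 18.8 in WT against 66.7 and 85.3 in KO (1.14 ± 0.38, unadjusted p = 0.0233, limma adjusted p = 0.846), whereas the other gave -0.46 ± 0.47. The first was 0.66 with a pseudocount of 56. The GARP tether, which receives vesicles at the Golgi, had Vps54 higher (0.22 ± 0.12) and Vps52 lower (-0.40 ± 0.23, and -0.25 without KO replicate 1) without overlap, with Vps51 and Vps53 between them. Vps16 and Vps41, of tethers of endosomes and lysosomes, differed by 0.12 ± 0.27 and 0.08 ± 0.21. Vps72, a chromatin protein that shares only the name, read 878 and 953 in WT against 711 and 1074 in KO.

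Sorting nexins were even, with 7 of 14 higher and 7 lower in KO and a median of -0.02. Snx17, which keeps receptors out of lysosomes, read 267 and 193 in WT against 259 and 406 in KO, an overlap set by KO replicate 1 (0.49 ± 0.26), and its other probe set read 80.5 and 91.6 in WT against 131 and 130.4 in KO (0.53 ± 0.24). The 2 probe sets gave similar differences, although the first was 0.18 without KO replicate 2. Snx10 read 87.6 and 103 in WT against 73.8 and 49.8 in KO (-0.54 ± 0.31, -0.31 without KO replicate 2). The retromer nexins Snx1, Snx2, Snx5 and Snx6 differed by 0.02, 0.22, 0.04 and -0.12 on the brightest probe set of each. Further probe sets gave 0.14 and -0.20 for Snx2, and 0.27 ± 0.38 and 0.79 ± 0.31 for Snx5. Those of Snx5 were dim, and the last was higher on both KO arrays. Snx3 was bright and read 3876 and 3765 in WT against 3863 and 3475 in KO.

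A few symbols matched the rule without a place in these pathways. Sec14l1 and Sec14l2, lipid-binding proteins, differed by -0.12 ± 0.16 and -0.09 ± 0.19, and a dim second probe set of Sec14l1 gave 0.60 ± 0.38. Sec1, a fucosyltransferase gene, was dim, at 12.9 to 19.5. The transcripts named as antisense to Rab10 and Rab26 read 54.4 to 106 and 6.26 to 34.9; Rab26os was higher on both KO arrays (0.87 ± 0.32, unadjusted p = 0.0348, limma adjusted p = 0.859), by 0.37 with a pseudocount of 56 and 1.36 with one of 3.5. Rab5if read 1115 and 1120.2 in WT against 1092 and 958 in KO.

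Several readings of the same gene were available for 32 of the 117 genes, with 69 probe sets. All probe sets of a gene had the same sign in 20 genes and differed in sign in 12. At least 1 probe set separated the genotypes in 17 of the 32 genes. Of all probe sets, 17.0% lay above and 17.6% below WT without overlap. A gene with several probe sets has more occasions to hold a separated one. Every probe set separated in the same direction in 1 gene, Rab31. The brighter one read 79.8 and 74.4 in WT against 66.5 and 73.8 in KO (-0.11 ± 0.29). The other was dim and read 25.2 and 39.6 in WT against 13.7 and 21.8 in KO (-0.54 ± 0.36). Of 19 genes with at least 2 probe sets above the median intensity, 13 had the same sign among those. In 18 of the 154 probe sets the name carries a letter that marks a departure from the usual design, 3 with s or 7 with f for probes shared by several transcripts, 7 with r and 1 with g. They include separated probe sets of Rab7 (s), Tmed7, Rab33b and Rab31 (f), and Sec62 and Snx17 (r).

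**Figure D4:**
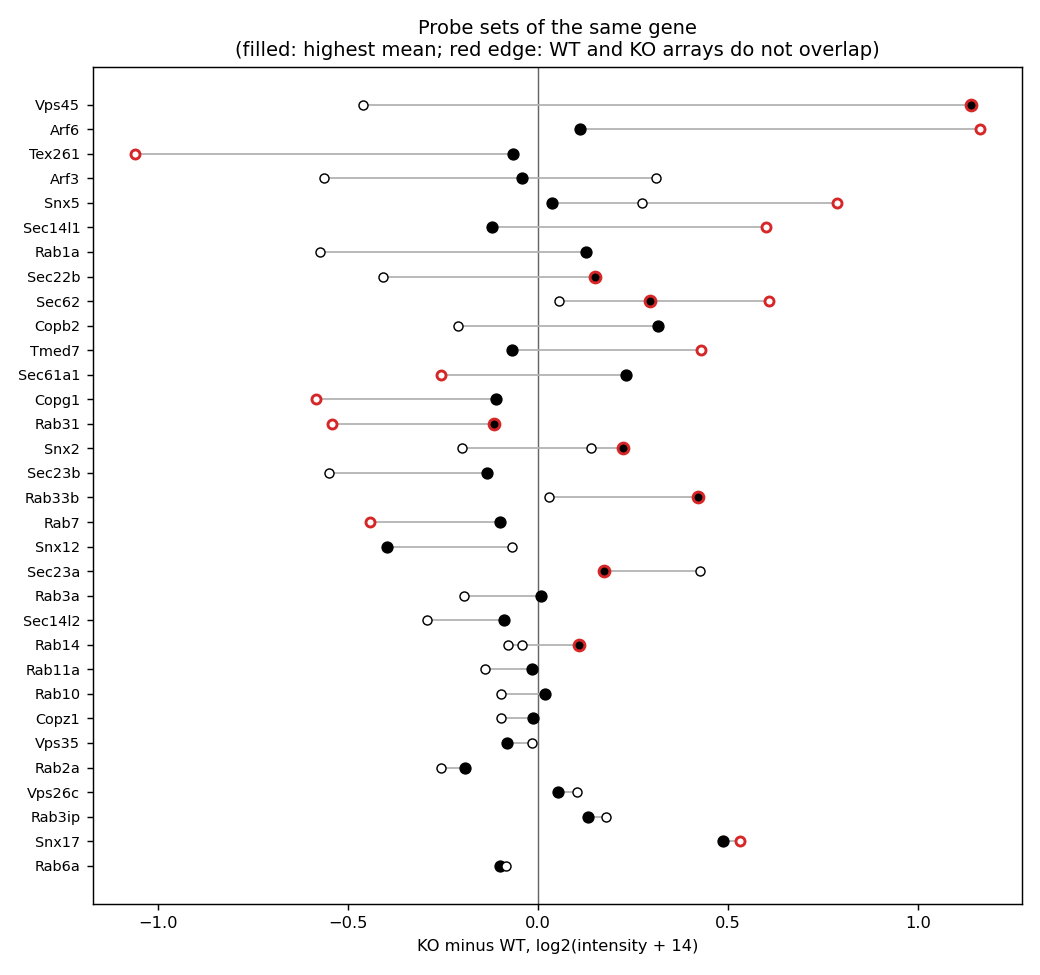
Log2 fold change of KO against WT for every probe set of the 32 genes with more than 1, genes ordered by the distance between their probe sets. Filled points are the brightest probe set and red edges mark WT and KO arrays that do not overlap; the widest gaps, at Vps45, Arf6 and Tex261, separate the probe sets by at least 0.99.

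The size rule, at least 1.5-fold without overlap and with a mean above the median probe set, was met by 3 genes higher in KO, Sec16a, Rab4b and Vps26a, and 1 lower, Tmem115. Over all genes 1.05% met it as higher and 0.812% as lower. Only genes with a mean above the median probe set can meet it, 95 of the traffic genes and 4860 of all genes. Among those 4860, 87 met it as higher and 67 as lower. Among probe sets, 3 and 2 of 154 met it, the second lower one being that of Tex261, against 1.01% and 0.773% of all probe sets. Both lower ones are of genes named singly in the choice, with earlier results of these arrays known. Sec16a, among the higher ones, was also known from those results. The higher and the lower counts were thus not independent of these data.

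A wider list of traffic genes was read the same way. Of 150 measured SNAREs, clathrin adaptors, cargo receptors, golgins, regulators and ESCRT genes, 73 were higher and 77 lower in KO (median -0.01), and 16 (10.7%) and 24 (16%) separated the genotypes, against 16.4% and 18.2% of all genes. None passed (limma adjusted p), and 2 (1.33%) had an unadjusted p under 0.05, against 5.39% of all genes. Clathrin, its adaptors and dynamins were lower in 21 of 29 cases, 10 of them (34.5%, against 18.2% of all genes) without overlap, with a median of -0.08. Cltc was the 1 gene higher without overlap (0.12 ± 0.10), and the dynamin genes Dnm1 and Dnm2 were higher with overlap, by 0.07 and 0.27. KO replicate 1 was the lowest array for 14 of the 29 (48.3%, against 26.5% of all genes). WT replicate 2 was the highest for 13 (44.8%, against 25.3%). The list was described and not tested as a set. Ap4s1, a subunit of the AP-4 adaptor, read 950.1 and 981 in WT against 764 and 638 in KO (-0.46 ± 0.12, unadjusted p = 0.00959, limma adjusted p = 0.803). Ap1m1 and the dim Ap1s2, of the AP-1 adaptor, differed by -0.30 ± 0.14 and -0.84 ± 0.37. Other AP-1 genes overlapped: Ap1s1, Ap1g1 and the dim Ap1g2 were higher by 0.24, 0.10 and 0.29, and Ap1b1 differed by -0.04. Ap1m1 was at 0.33 with the mean of all its probe sets, and Ap1s2 at -0.50 without KO replicate 2 and -0.34 with a pseudocount of 56. Golph3, which binds the Golgi membrane to myosin, read 638 and 490.1 in WT against 457 and 359 in KO (-0.45 ± 0.18, with -0.27 without WT replicate 1 and -0.28 without KO replicate 2). Napa, which helps to take SNARE complexes apart, read 1156 and 1138 in WT against 971 and 982 in KO (-0.23 ± 0.10). Srpr, the receptor of the signal recognition particle, read 3377 and 3127 in WT against 3686 and 3870.0 in KO (0.22 ± 0.10, and -0.02 with the mean of all its probe sets).

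The promoters of the traffic genes were read for motifs named for stress of the compartments these genes serve. Promoter windows of 300 bases, from 250 before to 50 after each start, were found for 97 of the 117 genes (116 windows, RefSeq, GRCm38.p6), and several windows of a gene can overlap. Their median GC content was 63.3%, against 59.7% for windows of all genes on the array and 52.7% for all windows. Each motif was searched on both strands, and a match is a description of letters, not a shown site of binding.

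The Golgi stress element ACGTGGC, known as a site of the factor TFE3, was held by 13.8% of traffic gene windows, against 3.51% of windows of array genes and 2.58% of all windows. The core TCACGTGA of the CLEAR element, bound by the lysosomal regulator TFEB, was held by 6.03%, against 1.63% and 0.974%. It contains the E-box CACGTG, which was held by 14.7%, against 9.55% and 7.15%. The unfolded protein response element TGACGTGG, which can overlap ACGTGGC, was held by 4.31%, against 0.939% and 0.676%, and its core TGACGTG by 5.17%, against 2.71% and 2.01%.

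Further motifs were searched too. The ETS motif CCGGAAG was held by 24.1%, against 14.4% of windows of array genes. TATAAA was held by 4.31%, against 9.98%, TGACGTCA by 2.59%, against 2.60%, and CCAAT by 33.6%, against 37.4% of all windows. CCACG, the right part of the ER stress element, was held by 49.1%, against 43.6%. Its reverse complement CGTGG lies within ACGTGGC and TGACGTGG. The windows were richer in G and C than those of array genes, a property these shares were not adjusted for.

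**Figure D5:**
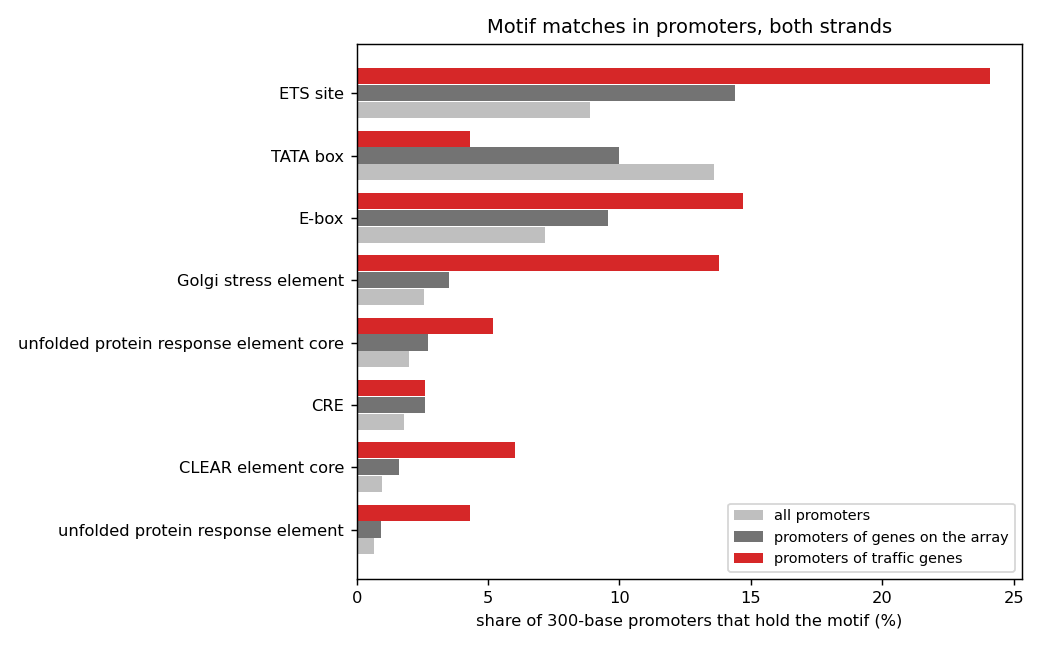
Share of 300-base promoter windows that hold each motif on either strand, for traffic genes, for all genes on the array and for all promoters in the table; CCAAT and CCACG are not drawn. The Golgi stress element stands at 13.8%, 3.51% and 2.58%, and the CLEAR core at 6.03%, 1.63% and 0.974%.

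The matches of the Golgi stress element are shown with 10 bases on each side (Copz2 is cut at the window's end), because they lie in genes of several roles: coats, Arfs, Rabs, Tmed genes, a nexin and the translocon. Each is printed 5′ to 3′ on the strand on which it reads ACGTGGC, in capitals.
Arf1 (chr11:59228228-59228254, - strand): gcaggcgctgACGTGGCtgccgtcagc
Arf5 (chr6:28423523-28423549, - strand): gcccgacgtcACGTGGCcccgcccctc
Copg1 (chr6:87887933-87887959, + strand): gctcagggcgACGTGGCgggcgggagt
Copz2 (chr11:96849905-96849925, - strand): gcggACGTGGCcaggcctccg
Rab24 (chr13:55322108-55322134, - strand): ggtgggggggACGTGGCtaggcgcacg
Rab3il1 (chr19:10018143-10018169, + strand): gggaccgggcACGTGGCctggggcccg
Rab5a (chr17:53479228-53479254, + strand): gcgtgcggctACGTGGCggagccggcg
Sec13 (chr6:113740668-113740694, + strand): acggcctcggACGTGGCagctcaaaac
Sec23a (chr12:59011993-59012019, - strand): ctcccctttgACGTGGCagaggcggca
Sec24c (chr14:20674236-20674262, + strand): cctaaggccgACGTGGCagaaggagtg
Sec63 (chr10:42761463-42761489, - strand): actgagggagACGTGGCgcgcgcagca
Snx5 (chr2:144270605-144270631, - strand): ctgggggagcACGTGGCgtgccgctcg
Tmed3 (chr9:89704998-89705024, + strand): ccctgaagagACGTGGCgcgagctcag
Tmed3 (chr9:89705228-89705254, - strand): ttctccggagACGTGGCagacactaag
Tmed9 (chr13:55593121-55593147, + strand): ccgctgggctACGTGGCtcggcagtct

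Copb1 and Copb2, of the COPI coat, carried the unfolded protein response element, as did Arf1 and Sec23a, where it overlaps the Golgi stress element. The element is in capitals.
Arf1 (chr11:59228229-59228256, - strand): cggcaggcgcTGACGTGGctgccgtcag
Copb1 (chr7:114254691-114254718, + strand): agtccttggcTGACGTGGaagggggcgg
Copb2 (chr9:98563714-98563741, - strand): gccaacccacTGACGTGGaacttccggg
Sec23a (chr12:59011994-59012021, - strand): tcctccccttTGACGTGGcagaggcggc

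The CLEAR core was found in Rabs of endosomes, in Sec62 of the translocon, in the lysosomal tether gene Vps16 and at 2 places in Vps26a. It reads the same on both strands and is printed on the strand of the gene.
Rab21 (chr10:115315605-115315632, - strand): cccaccgcggTCACGTGAcgaggggtgt
Rab24 (chr13:55321962-55321989, - strand): ggcgcccgcgTCACGTGAccgggcgtcc
Rab5a (chr17:53479128-53479155, + strand): cccggggatgTCACGTGActtcggcccc
Sec62 (chr3:30792833-30792860, + strand): ttgtgaggtgTCACGTGAggagcggaca
Vps16 (chr2:130424291-130424318, + strand): ggcggcctcgTCACGTGAccccgaaggg
Vps26a (chr10:62486733-62486760, - strand): tggcctacggTCACGTGAcgggcggcgg
Vps26a (chr10:62486971-62486998, - strand): gcacggctcgTCACGTGAcaactagctc

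The region upstream of 1 of the starts of Vps26a is shown because this gene met the size rule and holds the CLEAR core, in capitals.
Vps26a (chr10:62486806-62487055, - strand): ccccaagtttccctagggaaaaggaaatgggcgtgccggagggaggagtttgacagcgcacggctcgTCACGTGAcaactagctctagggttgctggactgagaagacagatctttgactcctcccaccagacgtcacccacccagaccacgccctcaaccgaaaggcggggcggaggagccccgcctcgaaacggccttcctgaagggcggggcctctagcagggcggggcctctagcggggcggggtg

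The genes with these motifs were read in KO muscle too. Of the 14 with a Golgi stress element, 7 were higher and 7 lower, at a median of 0.0021 on the log2 scale, and 3 (21.4%) lay above and 1 (7.14%) below WT without overlap, against 16.4% and 18.2% of all genes. Of the 6 with a CLEAR core, 5 were higher, 2 of them, Vps26a and Sec62, without overlap (33.3%, against 16.4% of all genes). Both were smaller without WT replicate 2, at 0.23 and 0.14. Of the 4 with an unfolded protein response element 3 were higher.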

How the data were processed

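For each array the authors deposited 1 linear intensity per probe set, in arbitrary units. No label or header used here states how probes were summarised, how background was corrected or which genome build applied. The authors' values were already scaled: the mean without the lowest and highest 2% was 200.2 on each array, and medians were 67.6 to 71.2. No further scaling was applied, and precision is limited by there being 4 arrays.

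Of 12488 rows, 66 Affymetrix controls were left out. The deposited intensities were put on a log2 scale after adding 14, which is 20% of the overall median and makes differences of dim probe sets look smaller. KO was compared with WT with limma 3.58.1 in R 4.3.3 (lmFit, eBayes with an intensity trend) over all 12422 probe sets, two-sided, with p-values adjusted by Benjamini-Hochberg and called under 0.05. The ± beside a log2 fold change is the standard error from limma. The fit was tested on simulated data. Groups were taken from the sample titles, since the labels exchange the genotype and tissue fields.

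Symbols came from the platform annotation: 10833 probe sets had 1 symbol and 396 several. Per gene, the probe set with the highest mean was used, and "dim" marks a mean not above that of the median probe set. Members and lists were chosen with earlier results of these data known. The genes named were, by rule, Tex261, Tmem115, Sec16a, the 2 smallest and the single largest p of each role, genes past the size rule, and the 6 other traffic genes with the smallest p; further members are named to show their complex. Motifs were chosen after the values had been seen. The whole ER stress element and longer NRF1 and YY1 motifs were searched first and then left out, and the CLEAR element was cut from its longer form to its core, which changed its shares; those first values are not reported here.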

Additional observations from a re-analysis of the deposited data

How the results depend on the processing

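No traffic probe set passed the adjusted threshold under any of the alternatives run (limma): pseudocounts of 56 and 3.5, a filter on level, quantile normalization, median centring, no intensity trend, a replicate block, each array left out, and the mean of all probe sets of a gene. At an unadjusted p under 0.05 there were 5 to 15 of 154 probe sets when an array was left out (3.25% to 9.74%, against 5.35% to 6.69% of all probe sets). Symbols updated through gene identifiers gave the same 154 probe sets. The replicate number as a block gave 0 calls among traffic genes and a smallest adjusted p of 0.374, and the pairing rests on a number only: the deviations of same-numbered arrays correlated at 0.0034. With 3 arrays separation is easier. Of the 117 genes, those above WT without overlap numbered 33 to 49 and those below it 24 to 45 when an array was left out. Their median log2 fold change ran from -0.015 to 0.050 over the 117. Over all probe sets, rather than genes, 31.2% to 36.7% lay above and 32.8% to 35.3% below.

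Of 600 values of 47 named genes under alternatives, 562 kept their direction; the cause of the other 38 was not tested. With a pseudocount of 3.5 the log2 fold changes of the other direction were Arf2 0.022, Sec24b -0.034. With quantile normalization the log2 fold changes of the other direction were Copz1 0.0053, Sec24b -0.011, Vps4a 0.0063. With median centring the log2 fold changes of the other direction were Rab3a -0.0017, Sec24b -0.0028, Trappc2l -0.0097. With the mean of all probe sets of a gene the log2 fold changes of the other direction were Rab3a -0.092, Sec14l1 0.24, Ap1m1 0.33, Srpr -0.023. With each array left out in turn, the genes that crossed 0 ranged as follows: Arf2 -0.45 to 0.44, Arf4 -0.30 to 0.018, Copz1 -0.074 to 0.051, Rab10os -0.31 to 0.51, Rab11fip5 -0.087 to 0.19, Rab33a -0.45 to 0.70, Rab3a -0.14 to 0.16, Rab9 -0.065 to 0.053, Sec14l1 -0.31 to 0.067, Sec14l2 -0.31 to 0.13, Sec24b -0.32 to 0.34, Sec61b -0.24 to 0.18, Snx1 -0.19 to 0.22, Tex261 -0.18 to 0.042, Trappc2l -0.062 to 0.064, Vps4a -0.090 to 0.066.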
